A study of Mus musculus with 17 samples.

Results

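The genes described here are 8 that encode proteins of the junctions between Sertoli cells, the cells that nurse the germ cells inside the seminiferous tubule. They were chosen by name (*Cldn11*, *Ocln*, *Tjp1*, *F11r*, *Gja1*, *Cdh1*, *Cdh2* and *Ctnnb1*), and each matched 1 gene of the 23362 in the count table. Their levels were followed in 4 kinds of testis tissue of C57/Bl6 mice. *Inha* WT mice gave testis tubules (WT). *Inha* KO mice lack the inhibin alpha subunit and develop stromal tumours of the testis, and their testes were microdissected into 'normal' tubules far from any tumour (N), tumour associated tubules with the interstitium that borders a tumour (TAT) and tumour (TM). Age was given as postnatal day 48 to 52 in one label and as day 53 to 55 in another. N, TAT and TM share the KO genotype and their animals, so a comparison with WT joins the genotype with the distance from a tumour.

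The blood-testis barrier is formed where neighbouring Sertoli cells meet near the base of the tubule. It closes off meiotic and haploid germ cells from blood and lymph, and it opens and closes as germ cells move inwards. Tight junctions seal it through claudins, occludin and junctional adhesion molecules that are tied to actin by scaffolds of the zonula occludens family. The same contact site holds adherens junctions, built from cadherins and catenins, and gap junctions, through which connexins let small molecules pass between cells. Several of these genes are also used outside the barrier, for example in blood vessels and Leydig cells.

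The promoters of 4 of the genes are shown because they form the pairs on which the results turn: *F11r* and *Gja1*, higher in every tumour than in every WT testis, and *Cldn11* and *Ocln*, nearly missing from 1 of the 3 tumours. Each window is RefSeq sequence of GRCm38.p6, 250 bases before to 50 bases after the annotated start, written 5′ to 3′. Capitals mark matches on either strand to 6 short motifs that were searched for. The E2 box was searched as CACCTG and the AP-1 site as TGANTCA. The GC box was searched as GGGCGG. For the CCAAT box its own letters were searched. The SMAD box was searched as CAGAC, and the core of the SOX motif as ACAAT.
*F11r*, chr1:171437311-171437610, plus strand: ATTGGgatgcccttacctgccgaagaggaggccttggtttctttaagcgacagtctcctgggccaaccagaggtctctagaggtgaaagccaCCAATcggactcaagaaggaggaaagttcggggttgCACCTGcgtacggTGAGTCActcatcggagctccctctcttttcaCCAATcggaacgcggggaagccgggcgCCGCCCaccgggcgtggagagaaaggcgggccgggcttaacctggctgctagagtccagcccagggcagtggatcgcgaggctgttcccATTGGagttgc
*Gja1*, chr10:56377050-56377349, plus strand: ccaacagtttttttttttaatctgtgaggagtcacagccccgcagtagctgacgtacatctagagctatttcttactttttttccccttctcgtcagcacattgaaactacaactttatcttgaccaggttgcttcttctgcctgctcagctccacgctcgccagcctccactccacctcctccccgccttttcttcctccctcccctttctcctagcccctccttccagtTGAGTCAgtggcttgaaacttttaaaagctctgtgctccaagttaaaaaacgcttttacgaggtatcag
*Cldn11*, chr3:31149670-31149969, plus strand: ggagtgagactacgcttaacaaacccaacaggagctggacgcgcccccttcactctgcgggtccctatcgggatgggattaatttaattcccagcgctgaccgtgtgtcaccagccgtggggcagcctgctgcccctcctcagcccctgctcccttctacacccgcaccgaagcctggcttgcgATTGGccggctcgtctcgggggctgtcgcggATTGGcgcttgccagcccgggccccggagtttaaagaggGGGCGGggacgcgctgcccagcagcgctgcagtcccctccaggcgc
*Ocln*, chr13:100552669-100552968, minus strand: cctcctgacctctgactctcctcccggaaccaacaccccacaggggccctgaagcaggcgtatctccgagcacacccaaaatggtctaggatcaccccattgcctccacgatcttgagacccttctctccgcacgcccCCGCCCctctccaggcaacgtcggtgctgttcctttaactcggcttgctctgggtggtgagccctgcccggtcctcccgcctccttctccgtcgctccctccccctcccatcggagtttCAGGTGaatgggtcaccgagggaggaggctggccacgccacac

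The *F11r* window held an E2 box that begins 122 bases before the start, an AP-1 site 109 bases before it, 1 GC box and 4 CCAAT boxes. The *Gja1* window held a single match, an AP-1 site that begins 19 bases before the start. *Cldn11* had 2 CCAAT boxes, 66 and 35 bases before the start, and a GC box just after it. *Ocln* had a GC box 112 bases before the start and an E2 box that begins 8 bases after it. None of the 4 windows held the SMAD box or the SOX core, and no match overlapped another. Of 32851 promoter windows of the same length, 20.2% held an E2 box, 7.81% an AP-1 site, 35.7% a GC box, 37.4% a CCAAT box, 49.6% a SMAD box and 31.0% a SOX core. These are letter matches and not measured binding sites. Windows were used for 6 of the 8 genes (8 windows), with *Cdh1* and *Cdh2* not among them. The choice of windows for the 8 genes left out chromosome 18, where *Cdh2* lies. *Ocln* had a further annotated start that is not shown.

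The 17 libraries comprised 3 of WT, 4 of N, 4 of TAT and 6 of TM, and held 6349358 to 35454195 counts each. The KO regions came from 3 animals, of which animal 79813 was sampled in both testes and gave 4 TM libraries. Pieces that an animal gave for a region were summed, so that every group had 3 animals. Levels are given as CPM (counts scaled to a common library size) after TMM normalization. They compare a gene between samples, and not 1 gene with another, because gene length and priming at the poly(A) tail enter the level. *Inha* was at 62.9 to 70.6 CPM in WT and at 0.510 to 5.24 CPM in the KO regions. The samples also differed in their cells. The summed level of 20 spermatid genes ranged from 38457 to 45880.5 CPM over the WT samples, from 28506 to 37664 CPM over the N samples, from 8524 to 18866 CPM over TAT and from 727 to 5892 CPM over TM. For 19 Sertoli cell genes the ranges were 2364 to 3302 CPM (WT), 4367 to 4529 CPM (N), 6740.2 to 7394 CPM (TAT) and 4241 to 6347 CPM (TM), and no gene of this list was at 0 throughout a group. Such a sum follows the most abundant genes of the list. The mean log2 CPM of the 19 genes was 4.78, 5.20 and 5.22 in WT. In TM it was 5.72 and 6.14 in animals 79781 and 79813 but 3.48 in animal 79853, below WT. The part of this shift in the results was not tested, except where levels are set against the Sertoli list below. In bulk tissue, fewer cells of a type and less RNA per cell cannot be told apart.

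**Figure D1:**
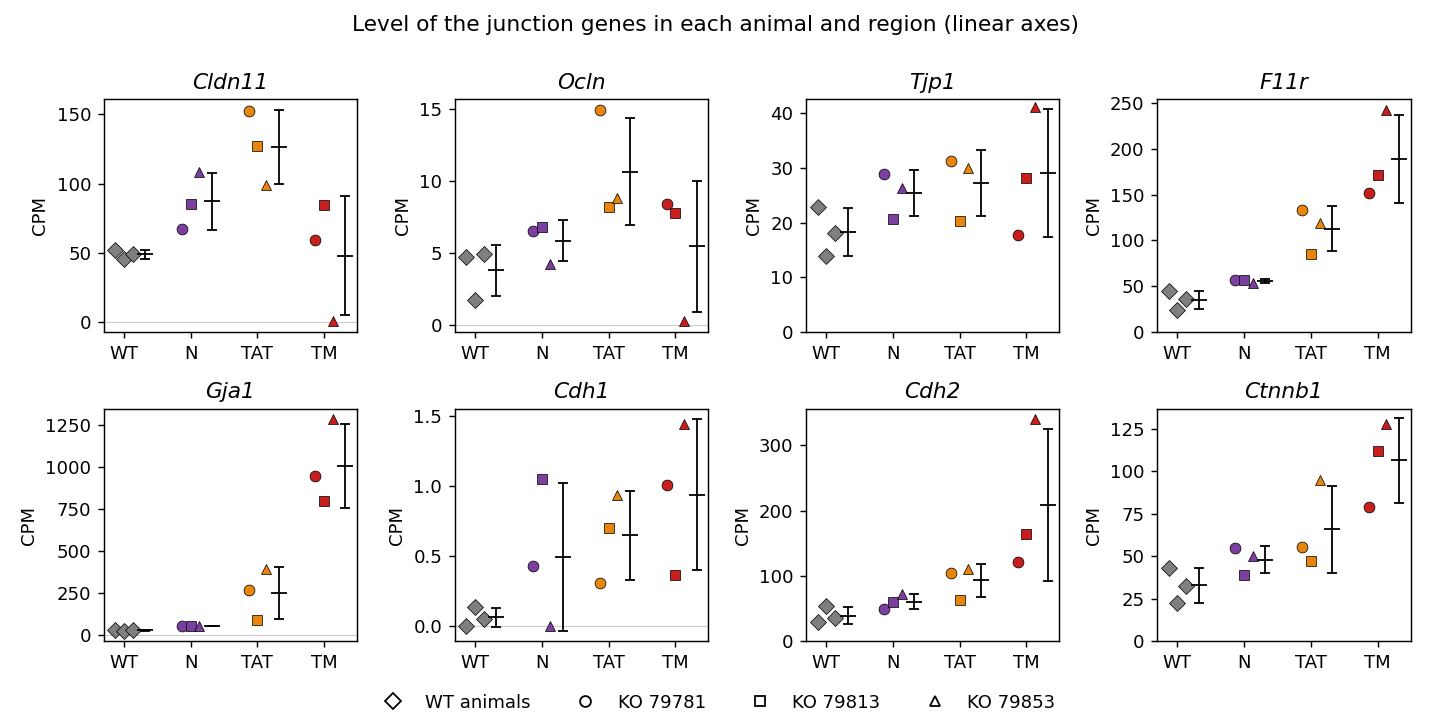
Level of each junction gene (CPM, linear axes) in the 3 animals of WT, N, TAT and TM. Symbols stand for animals, and bars beside them give the mean ± SD. *Gja1*, *F11r*, *Cdh2* and *Ctnnb1* were highest in TM, while *Cldn11* and *Ocln* were highest in TAT and nearly missing from the TM of animal 79853.

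*Cldn11* encodes claudin 11, the claudin that builds the tight junction strands of the barrier, and male mice without it are sterile (ENSMUSG00000037625, chr3:31149920-31164324, GRCm38). Its level was 52.1, 45.8 and 49.0 CPM in the WT animals, and 67.6, 85.6 and 109 CPM in N of KO animals 79781, 79813 and 79853. In TAT of the same animals it was 153, 127 and 99.4 CPM. Every N and every TAT sample thus lay above every WT sample. In TM it was 59.2, 84.7 and 0.656 CPM, so that 2 tumours were above every WT sample and the third had almost no transcript. The log2 fold change against WT was 0.83 ± 0.88 (SE) in N, 1.37 ± 0.89 in TAT and -0.02 ± 0.88 in TM, and none passed the test (edgeR adjusted p = 0.961, 0.293 and 0.986). The spread of *Cldn11* in that fit is shared by all groups, and the SD of log2 CPM was 3.83 in TM but 0.0940 in WT. Without animal 79853 the change in TAT was 1.52 and passed (adjusted p = 0.00443), and that in TM was 0.56 and did not (adjusted p = 0.0760).

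*Ocln* encodes occludin, a membrane protein of the tight junction (ENSMUSG00000021638, chr13:100496507-100552718). WT animals had 4.77, 1.79 and 4.92 CPM, and the N samples 6.54, 6.82 and 4.23 CPM. The TAT samples had 14.95, 8.19 and 8.86 CPM, and the tumours 8.41, 7.78 and 0.262 CPM. Every TAT sample was above every N and WT sample, and the tumour of animal 79853 was again the lowest of all samples. None of its changes passed: the log2 fold change against WT was 0.63 ± 0.81 in N, 1.496 ± 0.82 in TAT and 0.54 ± 0.82 in TM (edgeR adjusted p = 0.981, 0.215 and 0.583).

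*Tjp1* encodes ZO-1, the scaffold that ties claudins and occludin to actin (ENSMUSG00000030516, chr7:65296165-65527781). WT animals had 22.8, 13.9 and 18.1 CPM, the N samples 28.9, 20.7 and 26.4 CPM, the TAT samples 31.3, 20.3 and 30.0 CPM, and the tumours 17.8, 28.2 and 41.2 CPM. WT overlapped every KO region, and the group means went only from 18.3 CPM (WT) to 29.1 CPM (TM). The largest of its log2 fold changes against WT, 0.68 ± 0.33 in TM, did not pass (edgeR adjusted p = 0.0893). It was called by limma-voom on the 17 libraries (0.75, adjusted p = 0.0265), which takes pieces of the same animal as separate samples. Total library size also called it (1.00, adjusted p = 0.0189), and the adjusted p over all 14 alternatives went from 0.0189 to 0.411.

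*F11r* encodes JAM-A, an adhesion molecule of the immunoglobulin family found at tight junctions of epithelia and also on endothelium and blood cells (ENSMUSG00000038235, chr1:171437535-171464603). WT animals had 44.7, 24.2 and 35.7 CPM, and the N samples 56.9, 57.2 and 53.3 CPM. The TAT samples had 133, 85.3 and 119 CPM, and the tumours 152, 171 and 243 CPM. The 4 groups did not overlap and stood in the order WT, N, TAT and TM. How many of all genes stood in this order without overlap was not counted. The rise against WT passed in TAT (log2 fold change 1.69 ± 0.28, edgeR adjusted p = 0.00232) and in TM (2.44 ± 0.28, adjusted p = 5.84e-05), but not in N (0.68 ± 0.27, adjusted p = 0.567).

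*Gja1* encodes connexin 43, a gap junction protein that joins Sertoli cells to each other and to germ cells and is also made by Leydig cells (ENSMUSG00000050953, chr10:56377330-56402513). It showed the steepest gradient of the 8 genes. WT animals had 30.2, 24.1 and 27.3 CPM, and the N samples 52.2, 50.01 and 52.9 CPM. The TAT samples had 267, 86.5 and 395 CPM, and the tumours 946, 796 and 1286 CPM. Again the 4 groups did not overlap, a pattern whose share of all genes was not counted. The highest N sample was 1.06 times the lowest, whereas the highest TAT sample was 4.57 times the lowest. The log2 fold change against WT was 3.20 ± 0.44 in TAT (9.18-fold, edgeR adjusted p = 0.00134) and 5.21 ± 0.48 in TM (37.1-fold, adjusted p = 3.23e-05), while the 0.93 ± 0.41 in N did not pass (adjusted p = 0.635). Marker genes of other cell types were summed beside it. The level of 11 granulosa cell genes together ranged from 138 to 174 CPM over WT, 251 to 322 CPM over N, 332 to 1723 CPM over TAT and 2068 to 4391 CPM over TM. That of 12 peritubular myoid cell genes ranged from 461 to 595 CPM over WT. In the same order of regions it ranged from 541 to 643, from 611 to 2300.3 and from 676 to 2651 CPM. For 14 Leydig cell genes the order was different, with 2928 to 5853 CPM over WT, 568 to 638 CPM over N, 799 to 1730 CPM over TAT and 2602 to 3487 CPM over TM. Sertoli cells also express some of the granulosa cell list, such as *Fshr*, *Amhr2* and *Inhba*. The part of such cells in the rise of *Gja1* was not tested.

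*Cdh1* encodes E-cadherin, the cadherin of epithelia, which in the testis marks undifferentiated spermatogonia (ENSMUSG00000000303, chr8:106603351-106670246). It was close to the limit of detection in every group. The WT animals had 0, 4 and 1 counts, or 0, 0.132 and 0.0477 CPM, and 0 counts in the first allow up to 0.530 CPM (3 counts). N had 0.430, 1.05 and 0 CPM, where 0 counts allow up to 0.0934 CPM. TAT had 0.304, 0.698 and 0.938 CPM, and TM 1.00, 0.366 and 1.44 CPM. Every TAT and TM sample had more than every WT sample, though the limit of the shallow first WT library lies above the lowest of them, and the fitted change in TM rests on 5 WT counts and did not pass (log2 fold change 3.58 ± 1.58, edgeR adjusted p = 0.0670). DESeq2 and scaling by total library size called it (adjusted p = 0.0239 and 0.0462).

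*Cdh2* encodes N-cadherin, the main cadherin of Sertoli and germ cells (ENSMUSG00000024304, chr18:16588877-16809246). WT animals had 29.2, 53.6 and 35.3 CPM, and the N samples 49.97, 60.1 and 72.1 CPM. The TAT samples had 105, 63.9 and 111 CPM, and the tumours 122, 165 and 340.4 CPM. WT overlapped N and N overlapped TAT, whereas every tumour lay above all other samples. The log2 fold change against WT was 0.62 ± 0.38 in N, 1.24 ± 0.38 in TAT and 2.40 ± 0.39 in TM (edgeR adjusted p = 0.799, 0.0393 and 0.000343).

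*Ctnnb1* encodes beta-catenin, which links cadherins to alpha-catenin and carries the WNT signal to the nucleus (ENSMUSG00000006932, chr9:120929216-120960507). WT animals had 43.1, 22.8 and 32.8 CPM, the N samples 54.8, 39.3 and 49.95 CPM, the TAT samples 55.2, 47.1 and 95.3 CPM, and the tumours 79.1, 112 and 128 CPM. Each step of the order WT, N, TAT and TM overlapped with the next, but TAT and TM were clear of WT. The rise passed in TAT (log2 fold change 1.01 ± 0.32, edgeR adjusted p = 0.0457) and in TM (1.70 ± 0.33, adjusted p = 0.000887). The calls of *Cdh2* and *Ctnnb1* in TAT lie close to the threshold, and 7 and 5 of 14 alternative fits lost them.

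**Figure D2:**
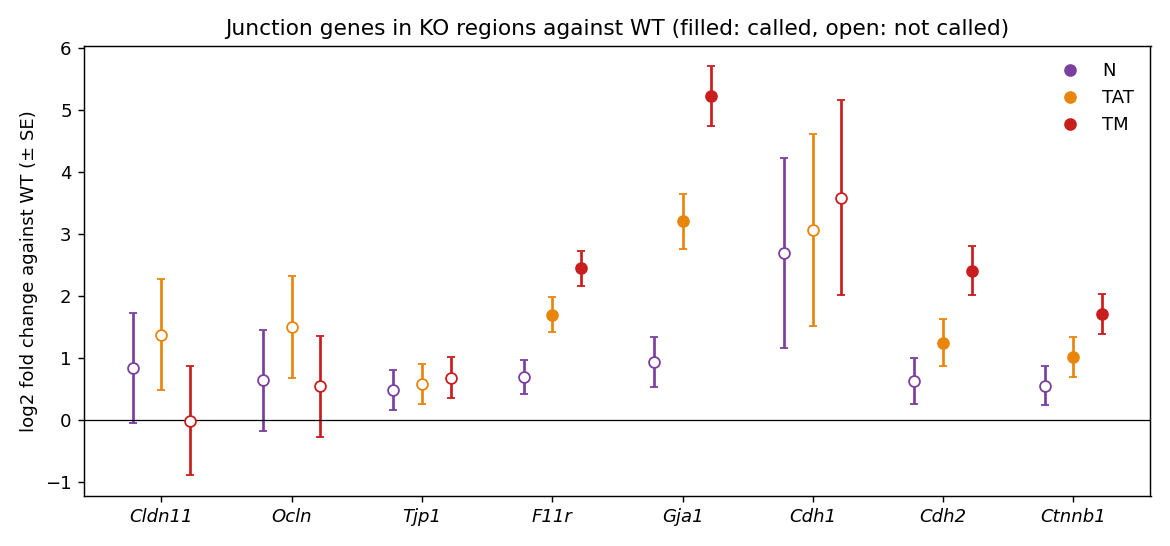
Log2 fold change of each junction gene in N, TAT and TM against WT, with bars of 1 SE (3 animals in each group). Filled symbols passed an adjusted p of 0.05 and a fold change of 1.5 (edgeR). *F11r*, *Gja1*, *Cdh2* and *Ctnnb1* are filled in TAT and TM, and no gene is filled in N.

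In N, none of the 8 genes passed against WT, where 0.0404% of all 19791 genes tested did. At an unadjusted p under 0.05, *F11r* and *Gja1* were higher in N, and a fit of N and WT alone called *Gja1* (log2 fold change 0.95, edgeR adjusted p = 0.0287). That fit called 0.941% of all genes. *Cldn11*, *F11r* and *Gja1* were higher in every N animal than in every WT animal, as were 12.3% of all genes. In TAT, 4 of 8 genes rose and none fell, against 14.4% of all genes that rose, and 7 of 8 lay above WT in every animal (26.0% of all genes). In TM, the same 4 genes rose and none fell, against 27.8% of all genes that rose, and 5 of 8 were above WT in every animal (30.9%). *Cldn11*, *Ocln* and *Tjp1*, the claudin, occludin and scaffold of the tight junction, did not pass in any region with this fit. A fit of TAT and WT alone called *Cldn11* (edgeR adjusted p = 0.00154) and *Ocln* (0.0367) in TAT, and 32.2% of all genes. The comparisons share the WT animals, and N, TAT and TM come from the same KO animals.

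Within the KO animals, regions were compared with the animal as a block. None of the 8 genes passed between TAT and N, and of the 19293 genes tested with edgeR 0% did, although 4517 of them had an unadjusted p under 0.05. *F11r* and *Gja1* came closest, with every TAT sample above every N sample (log2 fold change 1.01 ± 0.24 and 2.08 ± 0.39, edgeR adjusted p = 0.0754 and 0.0661). Both were called by limma-voom on the 17 libraries, by DESeq2, with total library sizes and in a fit of TAT and N alone (lowest and highest adjusted p of *Gja1* over all 12 alternatives 9.49e-05 and 0.643). Of all genes tested, these fits called 11.4, 19.4, 6.31 and 24.4%, in that order. The limma-voom fit had no block and took pieces of the same animal as separate samples, although they are not independent. Leaving out animal 79813, which had the lowest *Gja1* and *F11r* in TAT, also called both, and 7.37% of all genes.

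Between TM and N, *Gja1* (log2 fold change 4.27 ± 0.42), *F11r* (1.78 ± 0.25), *Cdh2* (1.73 ± 0.31) and *Ctnnb1* (1.18 ± 0.27) rose in TM, against 24.9% of all genes that rose. Their edgeR adjusted p was 0.00109, 0.00130, 0.00274 and 0.00758. Between TM and TAT, *Gja1* (2.18 ± 0.39, adjusted p = 0.0164) and *Cdh2* (1.10 ± 0.30, adjusted p = 0.0351) rose, against 7.65% of all genes. *F11r* and *Ctnnb1* were higher in TM by 0.78 ± 0.24 and 0.77 ± 0.27 and narrowly missed the threshold (adjusted p = 0.0508 and 0.0682). The 2 calls between TM and TAT (edgeR) fell to 1 without the block, which lost *Cdh2* (adjusted p = 0.0565), and to 0 without animal 79781. That last fit called 0% of all genes, with log2 fold changes of 2.36 for *Gja1* and 1.53 for *Cdh2*. *Cldn11* was lower in every TM than in every TAT sample (27.8% of all genes were), by -1.69 ± 1.12, which did not pass (adjusted p = 0.294). Without animal 79853 the difference was -0.83 and passed (adjusted p = 0.0400).

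For *F11r*, *Gja1*, *Cdh2*, *Ctnnb1*, *Tjp1* and *Cdh1* the group means stood in the order WT, N, TAT and TM. The share of all genes with means in this order was not counted. The neighbours WT and N, and N and TAT, did not pass for any of the 6, and TAT and TM passed for *Gja1* and *Cdh2*. For *Cldn11* the means were 48.2 ± 43.1 CPM (SD, n = 3) for TM, 49.0 ± 3.19 CPM for WT, 87.3 ± 20.5 CPM for N and 127 ± 26.6 CPM for TAT. For *Ocln* they were 3.82 ± 1.77 CPM for WT, 5.48 ± 4.53 CPM for TM, 5.86 ± 1.42 CPM for N and 10.7 ± 3.72 CPM for TAT. No pair of neighbours passed for either gene.

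**Figure D3:**
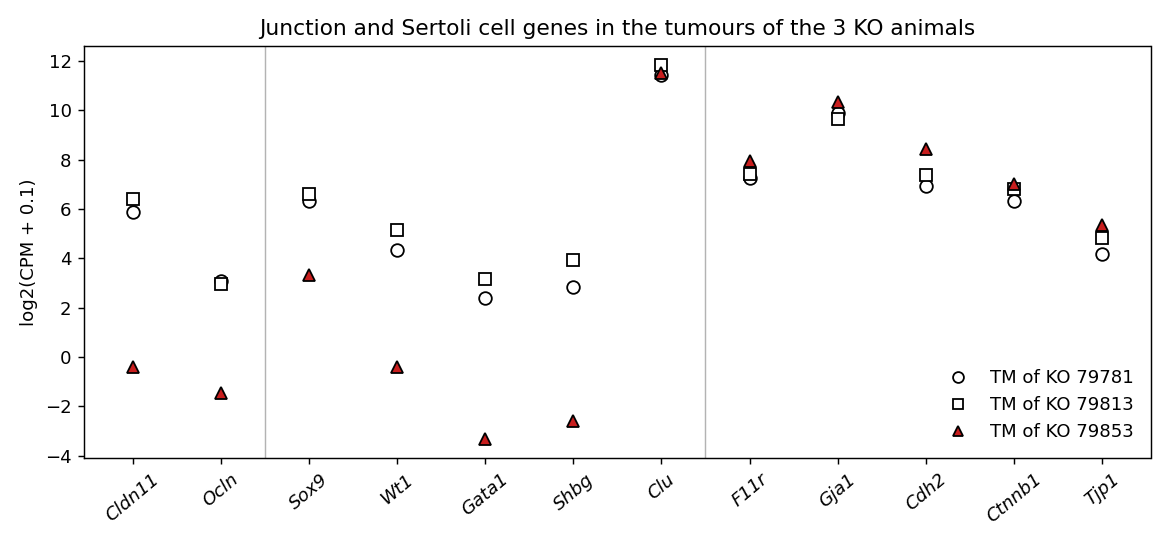
Level of junction genes and Sertoli cell genes in the TM of the 3 KO animals, as log2(CPM + 0.1). Vertical lines separate *Cldn11* and *Ocln*, Sertoli cell genes (*Sox9*, *Wt1*, *Gata1* and *Shbg* picked after their values were seen), and the other junction genes. *Cldn11*, *Ocln*, *Sox9*, *Wt1*, *Gata1* and *Shbg* were far lower in animal 79853 (filled), *Clu* was near the others, and *F11r*, *Gja1*, *Cdh2*, *Ctnnb1* and *Tjp1* were highest there. Of all 19 genes of the Sertoli cell list, 14 were lowest and 3 highest in this tumour.

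The tumour of animal 79853 separated the 8 genes. Its 10 counts of *Cldn11* gave 0.656 CPM (exact Poisson 95% interval 0.314 to 1.21, counting error only), 90.3 times below the lower of the other tumours. Its 4 counts of *Ocln* gave 0.262 CPM (0.0714 to 0.671), 29.7 times below. The other 6 genes were each highest in this tumour, as were 23.7% of all genes with a count in TM. For *Cdh1* this rests on 22 counts (1.44 CPM, interval 0.904 to 2.18), and the interval holds the 1.005 CPM of animal 79781. In N and TAT of animal 79853, *Cldn11* stood at 109 and 99.4 CPM, so the low level was seen in the tumour and not in the tubules of this animal. Of 8527 genes with at least 10 CPM in both other tumours, 7 (0.0821%, *Cldn11* included) had a ratio as low as that of *Cldn11*, and 35 (0.410%) were at least 20 times lower. *Ocln*, at 8.41 and 7.78 CPM in the other tumours, fell below that limit and was not among the 8527. The tumour of animal 79853 is 1 library with no replicate, and no test was made on it.

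The Sertoli cell genes divided in the same tumour. Of 19, 14 were lowest there, where 41.3% of all 22271 genes with a count in TM were, and 3 were highest. *Cst9*, which encodes a cystatin, was at 13.04 CPM against 115 and 255 CPM in the other tumours. The genes encoding the transcription factors *Wt1*, *Sox9* and *Gata1*, picked after their values were seen, were at 0.656, 9.90 and 0 CPM against at least 20.01, 80.2 and 5.21 CPM, and 0 counts allow up to 0.197 CPM. *Clu* (clusterin) and *Ctsl* (cathepsin L) were not lowest: *Clu* was at 2944 CPM against 2764 and 3682 CPM, and *Ctsl* at 852 CPM against 805 and 773 CPM. Other cell types differed as well. All 20 spermatid genes, 14 of 17 endothelial and 11 of 12 myoid cell genes were lowest in this tumour, and 9 of 11 granulosa cell genes and 6 of 6 red blood cell genes were highest, with a summed red blood cell level of 49001 CPM against 26225 and 19215 CPM. Of all genes with a count in TM, 23.7% were highest there. The part of these differences in the low *Cldn11* and *Ocln* was not tested.

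To set the junction genes beside other Sertoli cell genes of the same library, the mean log2 CPM of the 19 Sertoli genes was subtracted from that of each junction gene. *Cldn11* then stood at 0.92, 0.32 and 0.39 in WT, 0.32, 0.69 and 0.88 in N, 0.65, 0.80 and 0.32 in TAT, and 0.17, 0.26 and -3.94 in TM. N and TAT overlapped with WT, and the mean differed from WT by 0.0851 in N and 0.0461 in TAT (exact permutation p = 1.0 for both). Against the median in place of the mean of the Sertoli list, *Cldn11* differed from WT by 0.63 in N (exact permutation p = 0.2) and by 0.15 in TAT (p = 0.7). In TM every sample was below every WT sample, with a mean difference of -1.72 (exact permutation p = 0.1, the smallest that 3 against 3 allow), and without animal 79853 the difference was -0.33. Against WT, the median gene of the Sertoli list itself was higher by 0.78 in N and by 1.46 in TAT on the log2 scale, beside 0.83 and 1.37 for *Cldn11*.

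For *Gja1* the relative level was higher in TAT and TM than in WT. It stood at 0.14, -0.60 and -0.45 in WT, -0.06, -0.08 and -0.15 in N, 1.46, 0.24 and 2.31 in TAT and 4.16, 3.49 and 6.85 in TM. Every TAT and TM sample was above every WT sample, by 1.64 and 5.14 on average (exact two-sided permutation p = 0.1 for both). In N the mean difference was 0.21 (exact permutation p = 0.4), but against the median of the list it was 0.76, with every N sample above every WT sample (p = 0.1). The same change of reference moved *F11r* in N from -0.000368 to 0.55 and *Cdh2* from -0.0663 to 0.48 (exact permutation p = 0.4 and 0.1). *F11r* was above WT in every TM sample (mean difference 2.40, exact permutation p = 0.1) but overlapped with it in TAT (0.41, p = 0.4), and *Cdh2* likewise (2.27, p = 0.1, and -0.0515, p = 0.8). *Ctnnb1*, though called in TAT and TM against WT, overlapped here with WT in both (-0.32 in TAT and 1.66 in TM, exact permutation p = 0.6 and 0.2). *Tjp1* was below every WT sample in TAT (-0.73, exact permutation p = 0.1), though not against the median of the list (-0.62, p = 0.3). The value of animal 79853 in TM is raised for these genes by the low Sertoli list of that library, 3.48 as mean log2 CPM against 5.72 and 6.14 in the other tumours. In TM *F11r* stood at 1.52, 1.28 and 4.45 and *Cdh2* at 1.21, 1.22 and 4.93, the last value of each being that of animal 79853. Without this animal the mean difference from WT was 1.39 for *F11r*, 1.03 for *Cdh2*, 0.70 for *Ctnnb1* and 4.13 for *Gja1*. With 3 animals in a group, none of these 24 comparisons (8 genes in 3 regions) could reach a p of 0.05.

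The ratio of *Cdh2* to *Cdh1* was taken within each library. As log2 it was 8.73, 8.06 and 8.25 in WT, 6.65, 5.74 and 10.04 in N, 8.13, 6.38 and 6.79 in TAT and 6.83, 8.57 and 7.82 in TM. It differed from WT by -0.87 in N, -1.24 in TAT and -0.61 in TM (exact two-sided permutation p = 0.5, 0.2 and 0.4), and WT overlapped with every region. The ratio depends on depth and on the prior count where *Cdh1* has few or 0 counts. With a prior count of 0.5 in place of 2 the difference was -2.203 in TAT and -1.598 in TM (exact permutation p = 0.1 and 0.2). Without animal 79853 it was -2.15 in N, without animal 79813 it was -0.00437 in N and -1.03 in TM, and without animal 79781 it was -0.46 in N and -0.16 in TM.

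**Figure D4:**
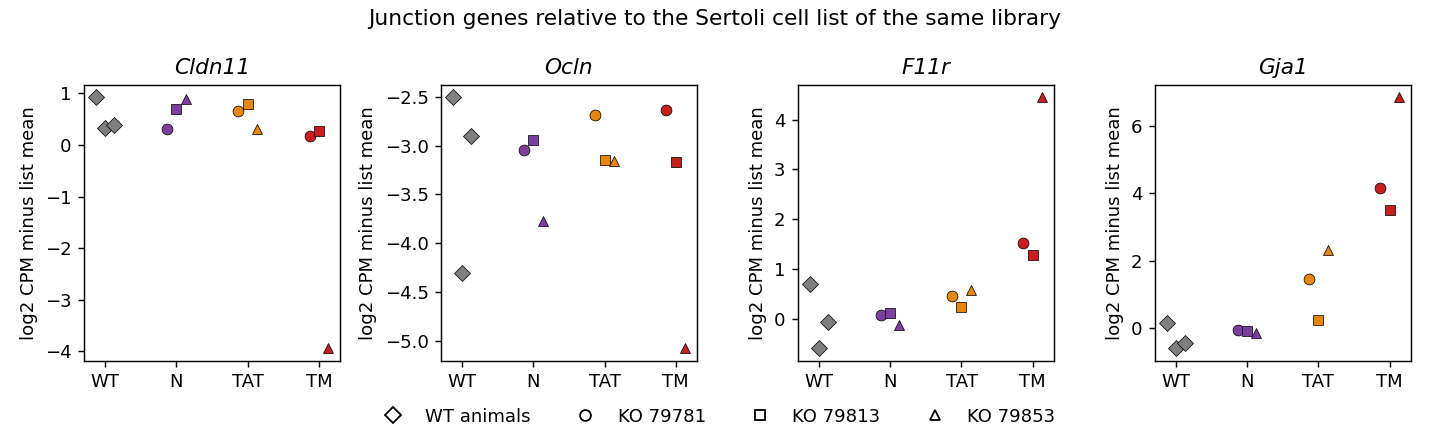
Log2 CPM of *Cldn11*, *Ocln*, *F11r* and *Gja1* minus the mean log2 CPM of 19 Sertoli cell genes in the same library, for the 3 animals of each group. *Cldn11* and *Ocln* stay near WT except in the TM of animal 79853, whereas *Gja1* is higher in TAT and TM.

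Other genes of the same junctions were counted in 4 lists that leave out the 8 genes. No gene of any list passed in N. Over all genes, 14.4% rose in TAT and 27.8% in TM. Of 31 other tight junction genes, 6 rose and 1 fell in TAT, and 10 rose and 7 fell in TM (54.8% called, against 58.4% of all genes), with a median log2 fold change in TM of 0.29 against -0.07 for all genes. Of 27 genes of adherens junctions and of the ectoplasmic specialization, the actin-rich Sertoli contact, 11 rose and 2 fell in TAT, and 15 rose and 7 fell in TM (81.5% called), with a median of 1.34 in TM. Of 10 other gap junction genes tested, 3 rose in TAT, and 4 rose and 1 fell in TM (median 1.92). Of 10 desmosome genes tested, 1 rose in TAT, and 2 rose and 3 fell in TM (median -0.44).

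In the tight junction list, *Jam2*, which encodes JAM-B, was at 5.83 to 14.8 CPM in WT and 44.9 to 65.1 CPM in TM (log2 fold change 2.22 ± 0.34, edgeR adjusted p = 0.000240). *Esam*, an endothelial adhesion molecule, rose by 3.72 ± 0.58 and *Cxadr*, the coxsackie and adenovirus receptor, by 4.96 ± 0.78. Against these, *Ybx3*, a Y-box protein of tight junctions that also binds RNA in germ cells, fell from a mean of 388 to 80.5 CPM (-2.27 ± 0.37), and *Cldn13* from 3.25 to 0.0508 CPM (-5.35 ± 1.35). *Esam* is an endothelial gene, and the summed level of 17 endothelial genes was 29.2 to 54.2 CPM in WT and 125 to 264 CPM in TM. Its part in the rise of *Esam* was not tested.

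In the adherens junction list *Ctnna1*, which encodes the alpha-catenin that binds beta-catenin to actin, was at 22.3 to 26.0 CPM in WT and 132 to 168 CPM in TM (2.61 ± 0.24, edgeR adjusted p = 2.99e-05). It was also higher in TAT, by 1.77 ± 0.23 (adjusted p = 0.00118), and in TM than in TAT, by 0.89 ± 0.24 (adjusted p = 0.0337). The integrin gene *Itgb1* (3.29 ± 0.34) and the actin bundlers *Pls3* (4.05 ± 0.47) and *Fscn1* (4.57 ± 0.57) rose more steeply in TM. *Pvrl3*, which encodes nectin 3 and which elongating spermatids use to hold to Sertoli cells, fell in TM from a mean of 249.3 to 39.0 CPM (-2.67 ± 0.39, adjusted p = 0.000182), and *Rai14*, an actin regulator of the ectoplasmic specialization, fell by 2.09 on the log2 scale. Both fell alongside the spermatid genes, of which 20 of 20 fell in TM, and the part of spermatids was not tested.

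Among the other gap junction genes *Gjc1* (connexin 45) rose in TM by 1.32 ± 0.29, *Gja4* (connexin 37) by 3.47 ± 0.79 and *Panx1* (pannexin 1) by 3.29 ± 0.85 (edgeR adjusted p = 0.00215, 0.00248 and 0.00553). In mean level *Gja4* went from 0.632 to 7.81 CPM and *Panx1* from 0.890 to 9.75 CPM. In the desmosome list *Pkp2* (plakophilin 2) rose by 4.38 ± 0.88 and *Perp* by 3.04 ± 0.67, and the desmogleins *Dsg1a* and *Dsg1b* fell (-2.90 ± 0.55 and -4.72 ± 1.10, adjusted p = 0.000836 and 0.00303), though reads of these near-identical copies may have been split between them. *Pkp2* was at 12.8, 9.09 and 40.6 CPM in TM and, like *Cdh2*, highest in animal 79853.

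**Figure D5:**
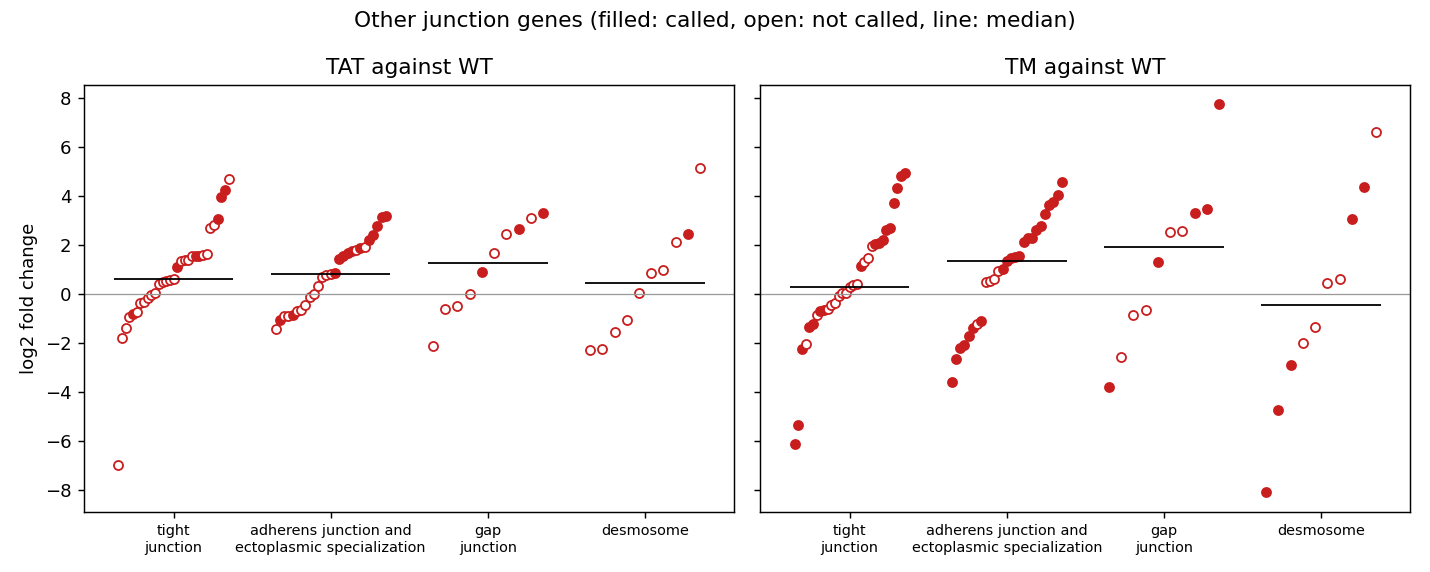
Log2 fold change of other junction genes in TAT (left) and TM (right) against WT, in 4 lists. Filled symbols passed the test (edgeR, 3 animals in each group), and horizontal lines are list medians. In TM, 15 adherens junction genes rose and 7 fell, while 10 tight junction genes rose and 7 fell.

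The genes whose log2 CPM most resembled each junction gene over the 12 summed libraries were sought among 9960 genes with a mean of at least 10 CPM. For *Cldn11* they were *Slc52a3* (riboflavin transporter, Pearson r = 0.990), *Tmem184a* (0.988) and *4933402E13Rik* (0.988). The TM of animal 79853, where *Cldn11* was nearly missing, weighs in this choice, and without it r was 0.938, 0.931 and 0.862 over 11 libraries. For *Ocln* they were *Scrn1* (0.955), *Gm11744* (0.949) and *Smim1* (0.941), with r of 0.861, 0.803 and 0.816 without that library. For *Gja1* they were *Vcan* (versican, 0.996), *Rpl10* (a ribosomal protein gene with near-identical copies, 0.996) and *Cyb5a* (0.996), and *Vcan* went from 2.20 to 2.83 CPM in WT to 157 to 207 CPM in TM. For *F11r* they were *Cnn3*, *Nfkbia* and *Casp6* (0.987, 0.987 and 0.986), for *Cdh2* *Cdkn1a*, *Fam114a2* and *Prelid1* (0.986, 0.983 and 0.981), and for *Ctnnb1* *Tcf3*, *Noc2l* and *Zzz3* (0.980, 0.966 and 0.964). The likeness was weaker for *Tjp1* (*Qser1*, *Gpr180* and *Bcar1*, 0.879 to 0.866) and *Cdh1* (*Sra1*, *Chchd5* and *Maf1*, 0.856 to 0.837). These values describe 12 libraries that share animals, groups and depth, and are not independent points.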

How the data were processed

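RNA of WT testis tubules and of microdissected N, TAT and TM pieces was sequenced from 3 *Inha* WT and 3 *Inha* KO animals (17 libraries), primed at the poly(A) tail with an index and a molecular identifier. The table deposited by the authors holds expected counts (estimated counts) of each gene without normalization, 88.8 to 94.5% of them whole in each library. Mapping by the authors used STAR and GRCm38 within nf-core/rnaseq. The paper names Salmon for quantification, whereas the submitters' notes list featureCounts (Subread 2.0.1) beside STAR 2.6.1d. Annotation, removal of duplicates by identifier and any filter are not given in the sources used here.

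Pieces of an animal are not independent, so their counts were summed for each region and rounded (12 libraries, 6349355 to 65236050 counts). The test was the quasi-likelihood test of edgeR 4.0.16 in R 4.3.3, with TMM, filterByExpr by group and Benjamini-Hochberg adjustment over all genes tested. Genes passed with an adjusted p below 0.05 and a change of more than 1.5-fold. The SE was the log2 fold change over the square root of F. Comparisons with WT used all 12 libraries, so that the groups share a gene's spread. KO regions were compared in 9 libraries, blocked by animal, because the labels give the regions of an animal the same number. Deviations from region means correlated by 0.0907 on average within animals (0.0208 to 0.334, 9 pairs) and by -0.0452 between animals (18 pairs). Libraries of a group were not copies (chi-square per gene at least 23.4). Log2 CPM had a prior count of 2. Alternatives were limma-voom (limma 3.58.1) on 17 libraries, DESeq2 1.42.0, RLE size factors, total library size, no filter, no fold threshold, only the groups compared, testis 1 only of animal 79813, no block, and each animal left out. The limma-voom fit had no block and took the pieces of an animal as separate samples. Likeness without the TM of animal 79853 was added after seeing the data. The tests were checked on simulated counts.

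Named genes were all 8, the 4 genes of each other junction list with the smallest p in TM against WT and up to 2 called against the majority of the list, the 3 genes most like each of the 8, and the 3 most abundant Sertoli list genes. Other named genes are marked, and an item that the rule names is not reported here. The 8 genes, the lists and the tests were chosen with earlier results of these data known. Motifs were counted in RefSeq promoters of GRCm38.p6, and gene positions are from GENCODE M21 on GRCm38.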

Additional observations from a re-analysis of the deposited data

Results flagged for a closer look

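*Cdh2* in the TM library of KO animal 79853 was at 359 CPM, far above the other 5 TM libraries, which lay between 110 and 200.1 CPM (CPM scaled over the 17 single libraries). The gap to the nearest library took 0.637 of the whole range of the 6 libraries. The same library held the lowest *Cldn11* and *Ocln*. It was found among 24 sets of libraries (8 genes in N, TAT and TM), and chance marks about 1 in 20 sets of independent libraries. Of the 6 TM libraries, 4 came from animal 79813 and are not independent, so that rate does not apply as it stands.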

How the results depend on the processing

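Of 14 calls among the 8 genes, 10 stood in every alternative: *F11r* and *Gja1* in TAT against WT, and *F11r*, *Gja1*, *Cdh2* and *Ctnnb1* in TM against WT and against N. Over the changes of single genes, 563 alternative values kept direction and side of the threshold, 30 passed where the reported value did not, 16 no longer passed and 11 turned direction. In N against WT, 1 gene was called in a fit of the 2 groups alone (0.941% of all genes were), and 0 with each animal left out. In TAT against WT, 2 were called with RLE size factors and 2 to 4 with an animal left out (2 without 79852 and without 79781). Those last fits called 10.5% (without 79852) and 3.73% (without 79781) of all genes, against 19% in the reported fit. In TM against WT and in TM against N, 4 were called with each animal left out. Without 79781, TM against N called 15.6% of all genes, against 53.5% in the reported fit. The reported fit of TM against WT called 58.4%. In TAT against N, 2 were called with limma-voom, DESeq2, total library size and the 2 groups alone, where 11.4, 19.4, 6.31 and 24.4% of all genes were. With an animal left out, 0 to 2 were called (2 without 79813, where 7.37% of all genes were). In TM against TAT, 4 were called with limma-voom, DESeq2, RLE size factors, total library size and the 2 groups alone, 1 with no replicate block and 0 to 4 with an animal left out (0 without 79781, 1 without 79813, 4 without 79853, of which *Cldn11* was lower). Of all genes, limma-voom called 43.2%, DESeq2 41.8% and the fit without 79781 0%, against 25.3% in the reported fit. The block changed no other call. The log2 cadherin ratio with a prior count of 0.5 differed from WT by -2.203 in TAT and -1.598 in TM. With an animal left out, the ratio in N differed by -2.15 to -0.00437, that of TAT by -1.76 to -0.884 and that of TM by -1.03 to -0.155. The turned values were *Cldn11* in TM against WT with total library size (0.28), with the 2 groups alone (0.037) and without 79783 or 79853 (-0.64 to 0.56 with an animal left out), *Cldn11* and *Ocln* in TM against N without 79853 (-2.42 to 0.071 and -1.01 to 0.43), *Tjp1* in TAT against N with DESeq2 and RLE (-0.0917 for both), *Cdh1* in TAT against N without 79853 (-0.55 to 1.797), *Cdh1* in TM against TAT with limma-voom (-0.71) and *Tjp1* in TM against TAT without 79813 (-0.083 to 0.499). The cause of these differences was not tested. Total library size moved the median log2 fold change of all genes against WT to 0.16 (N), 0.35 (TAT) and 0.25 (TM), from 0.03, 0.07 and -0.07. Depth limits *Cdh1*, which had 5 counts over the WT animals, and *Ocln*, with 184.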

Other observations

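The 4 TM libraries of KO animal 79813, 1 from testis 1 and 3 from separate tumours of testis 2, give the spread of the junction genes between tumours of the same animal. *Gja1* was at 560 to 921 CPM in them, *F11r* at 136 to 203 CPM, *Ctnnb1* at 79.8 to 126 CPM and *Cdh2* at 110 to 200.1 CPM, each within a factor of 1.83. *Tjp1* varied 1.52 times, *Cldn11* 2.15 times (52.9 to 114 CPM) and *Ocln* 3.54 times (3.74 to 13.2 CPM). All 4 libraries held *Cldn11* at or above the WT range of 45.8 to 52.1 CPM. The tubules of the 2 testes of this animal were alike in *Cldn11* (N at 84.2 and 89.4 CPM, TAT at 122 and 134 CPM) and in *F11r* (N at 55.1 and 60.8 CPM, TAT at 82.4 and 88.9 CPM), while *Gja1* differed more in N (61.2 and 40.1 CPM). These libraries share an animal, so the values are given without a test.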
